A study of Mus musculus with 10 samples.

Results

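In long-term hematopoietic stem cells (LT-HSCs) from KO fetal livers, Cdkn1a, which encodes the CDK inhibitor p21, had a mean of 49.2 CPM. CPM are counts scaled to library size with TMM normalization. In LT-HSCs from WT livers its mean was 19.8 CPM. Of 9 genes tested among the CDK inhibitors, p53 and the RB family, 0 passed an adjusted p of 0.1 in edgeR, the main test. There Cdkn1a had an adjusted p of 0.118, and 3.99% of all genes passed. In DESeq2 at the study's settings 1 of the 9 passed, Cdkn1a (adjusted p 0.0632), where 6.79% of all genes did. The genes described here are 10, chosen by name: the Cip/Kip inhibitors Cdkn1a, Cdkn1b and Cdkn1c, the INK4 inhibitors Cdkn2a, Cdkn2c and Cdkn2d, the p53 gene Trp53 with Mdm2, and the pocket protein genes Rb1 and Rbl2. The gene table of the series holds 17404 genes, of which 16725 had enough counts to be tested, and 9 of the 10 genes were among them. Cdkn2a has no row in that table and was read from the transcript tables.

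The libraries are bulk SmartSeq2 RNA-seq of LT-HSCs sorted from mouse fetal livers at E14.5 (embryonic day). KO (n = 6) is Tnfrsf11aCre; Spi1f/f and WT (n = 4) is Tnfrsf11a+/+; Spi1f/f, so both groups carry the floxed Spi1 alleles and differ by the Cre. The Cre is driven from the Tnfrsf11a locus, which is active in macrophage precursors, and Spi1 encodes PU.1, a transcription factor that macrophages need. The comparison therefore asks how the RNA of stem cells differs in a liver whose macrophages were targeted. Libraries are called here by the number in their labels, and the labels do not state that each came from a separate embryo, so that p-values measure the spread between these libraries.

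A cell enters S phase when complexes of cyclins and cyclin-dependent kinases (CDKs) phosphorylate RB and its relatives, which releases E2F transcription factors. Cip/Kip proteins (p21, p27 and p57) bind cyclin-CDK complexes, INK4 proteins bind CDK4 and CDK6 and keep cyclin D away, and p53 is a stress-activated transcription factor whose best known target is Cdkn1a. In hematopoietic stem cells these brakes are known for their part in quiescence, with p57 prominent in the adult bone marrow, whereas fetal liver stem cells divide more often than adult ones.

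Because Cdkn1a is transcribed from an upstream and a proximal start, the bases before each start are shown, taken from the RefSeq promoter table on GRCm38.p6. The upstream start lies at chr17:29090979 and is that of transcript Cdkn1a-202, and the proximal start lies at chr17:29093769 and is that of Cdkn1a-201, both on the plus strand. The 250 bases before each start are given 5′ to 3′, chr17:29090729-29090978 and chr17:29093519-29093768. Capitals mark a match to the p53 response element in the upstream sequence and GC boxes (GGGCGG) in the proximal one.
Cdkn1a upstream start: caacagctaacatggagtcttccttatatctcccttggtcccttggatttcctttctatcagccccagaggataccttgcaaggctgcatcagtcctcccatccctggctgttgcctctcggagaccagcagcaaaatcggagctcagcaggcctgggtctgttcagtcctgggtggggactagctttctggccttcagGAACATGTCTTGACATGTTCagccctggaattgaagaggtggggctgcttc
Cdkn1a proximal start: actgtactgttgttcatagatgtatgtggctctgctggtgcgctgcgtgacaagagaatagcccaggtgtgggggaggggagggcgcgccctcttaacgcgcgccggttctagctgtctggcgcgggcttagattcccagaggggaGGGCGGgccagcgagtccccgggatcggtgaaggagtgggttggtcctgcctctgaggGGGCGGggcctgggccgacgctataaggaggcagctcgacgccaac

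The p53 response element was searched by its consensus of 20 bases on both strands with at most 1 mismatch, a tolerance chosen after the sequence had been seen. The match begins at position -51 from the upstream start, at chr17:29090928-29090947, and 29 of 32851 promoter windows in the table (0.0883%) held such a match. The table has 11 windows for 8 of the 10 genes described here, all but Cdkn1c and Rb1, and the upstream Cdkn1a window was the 1 of these 11 with it. The GC box, the usual binding sequence of Sp1, was in 35.7% of all windows and in 8 of these 11, while the E2F sites TTTCGCGC and TTTGGCGC were in 0.323% and 0.514% of all windows and in 0 of the 11. The CHR element TTTGAA, through which the DREAM complex binds, was in 17.9% of all windows and in 1 of the 11, that of Rbl2. A match of letters in these windows describes the sequence and was not tested as a binding site.

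The depth was 5315435 to 30941726 counts per library in KO and 7633446 to 18256010 in WT. Spi1 itself was at 9.1 to 101 CPM in KO and 6.22 to 50.1 in WT, with an adjusted p of 0.337, which does not check the labels because the Cre acts in macrophage precursors and not by design in stem cells. LT-HSC markers were present in all libraries, at a summed 701 to 1760 CPM in KO and 499 to 748 in WT for the 10 genes of that list, with 3 of 10 higher in KO in edgeR (Mecom, Hlf and Hoxa9) and 0 lower, where 1.32% of all genes were higher and 2.67% lower. Of 10 macrophage markers, 0 were higher and 1 lower, Marco, which was at 0 in all KO libraries. Their log2 fold changes (KO against WT) were negative for 7 and positive for 3, with a median of -0.94. The list summed to 200 to 920 CPM in KO and 89.3 to 693 in WT. Mrc1, which is among those 3, had the highest mean of the list, 329 CPM in KO and 283 in WT. Summed markers of other cells ranged widely in both groups, from 151 to 1340 CPM in KO and 158 to 3680 in WT for 4 erythroblast genes (1 lower in KO), from 12.6 to 1070 and 6.07 to 1980 for 6 neutrophil genes, from 157 to 3140 and 159 to 1100 for 5 megakaryocyte genes, from 55.7 to 5580 and 138 to 3760 for 5 hepatoblast genes, and from 1320 to 6850 and 338 to 4470 for 6 endothelial genes. Log2 fold changes were negative for all 4 erythroblast genes (median -1.42), of which 2 were lower in DESeq2 at the study's settings. They were positive for all 5 megakaryocyte genes (median 1.1) and all 5 hepatoblast genes (0.68). Of the neutrophil genes 4 of 6 were positive (median 0.33), and of the endothelial genes 5 of 6 (0.28). WT 15416 was the lowest WT library for the macrophage, neutrophil, megakaryocyte, hepatoblast and endothelial lists. The part of these cells in the values of Cdkn1a and the other genes was not tested.

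On the CPM scale Cdkn1a was the 1 gene of this set with an unadjusted p under 0.05. In edgeR's quasi-likelihood test 0 of the 9 genes passed an adjusted p of 0.1, where 3.99% of all genes tested did, and at an unadjusted p under 0.05 there was 1 of 9, against 18.8% of all genes. With DESeq2 at the study's settings, which test for a log2 change beyond 0.1, 1 of 9 was higher in KO (Cdkn1a) and 0 were lower, where 6.79% of all genes passed, 3.5% higher and 3.29% lower. For 0 of the 9 genes did the CPM of KO and WT libraries fail to overlap, against 6.36% of all genes. The median log2 fold change (KO against WT) was 0.08 over the 9 genes and 0.06 over all genes.

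Among the Cip/Kip inhibitors, Cdkn1a (chr17:29090976-29100727, plus strand) had 22.8, 33.7, 34.98, 53.8, 73.1 and 76.5 CPM in KO libraries 15405, 15406, 15409, 15411, 15412 and 15415. The WT libraries 15416, 15417, 15418 and 15420 had 9.25, 22.5, 18.3 and 29.3 CPM. Thus 5 of 6 KO libraries lay above every WT library, and KO 15405 lay between WT 15417 and WT 15420. The mean was 49.2 ± 22.3 (SD, n = 6) in KO and 19.8 ± 8.39 (SD, n = 4) in WT, 2.49 times higher in KO with a 95% interval of 1.35 to 4.56. The log2 fold change was 1.31 ± 0.40 (SE), with an adjusted p of 0.118 in edgeR and 0.0632 in DESeq2 at the study's settings. An exact two-sided permutation test over the 210 ways to divide the libraries into 6 and 4 gave p = 0.019, where the smallest possible is 0.00952. Without WT 15416, the lowest WT library, the log2 fold change was 1.08 with an adjusted p of 0.234 in edgeR. With Xist, a marker of female cells, as a covariate it was 0.94 with an adjusted p of 0.357. In either setting 0 of all genes tested passed an adjusted p of 0.1. In such bulk samples a change in the mix of cells and a change in RNA per cell cannot be told apart, and the summed LT-HSC markers given above were above every WT library in 5 of 6 KO libraries. The part of that in the value of Cdkn1a was not tested.

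Cdkn1b (p27, chr6:134920401-134925513) ranged from 25.4 to 44.5 CPM in KO, with a median of 33.4, and had 14.49, 25.4, 23.0 and 33.7 CPM in the WT libraries 15416, 15417, 15418 and 15420. Thus 3 of 6 KO libraries lay above every WT library. The means were 33.8 ± 6.16 (SD, n = 6) and 24.1 ± 7.9 CPM (SD, n = 4), and the log2 fold change was 0.49 ± 0.26 (SE), with an adjusted p of 0.339 in edgeR. The exact permutation test gave p = 0.0571 for this gene. Cdkn1c (p57, chr7:143458339-143461050) ranged from 29.2 to 64.9 CPM in KO (median 43.2). Among the WT libraries, 3 had 68.3 to 79.3 CPM, above all 6 KO libraries, and WT 15416 had 8.87 CPM, below all of them. With all libraries the log2 fold change was -0.34, with a 95% interval of -1.36 to 0.69 and an adjusted p of 0.752 in edgeR, and without WT 15416 it was -0.70 with an adjusted p of 0.271. Of its exonic bases, 30.7% are shared with the antisense gene Gm44732, and the counting is not stated to use strand.

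**Figure D1:**
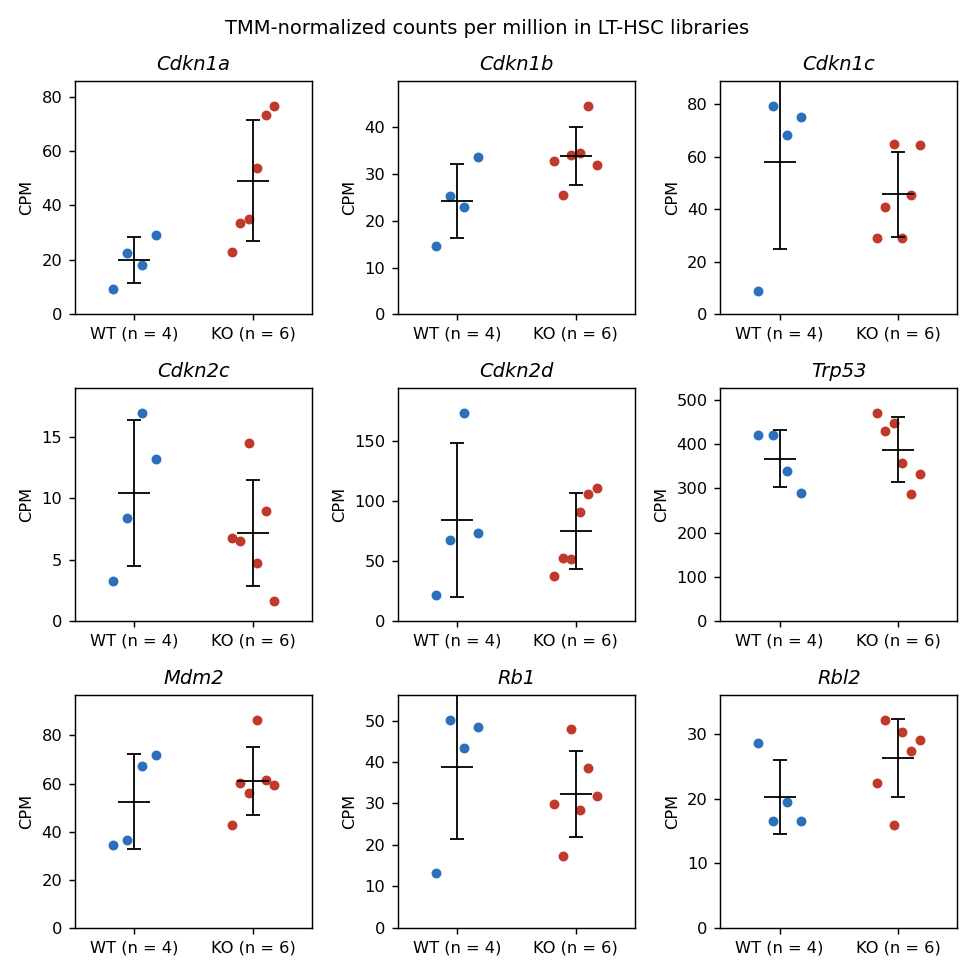
TMM-normalized CPM of 9 genes in each library (points; WT blue, n = 4; KO red, n = 6) with the mean and SD in black; the y axes start at 0 and differ between panels. For Cdkn1a 5 of 6 KO libraries lie above the highest WT library (29.3 CPM), and for Cdkn1c a single WT library lies at 8.87 CPM while the other 3 lie at 68.3 to 79.3 CPM.

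For the INK4 family, no call was made in either direction. Cdkn2a encodes p16INK4a and p19ARF from different first exons, and its transcripts Cdkn2a-201 and Cdkn2a-202 were listed at 0 in all 10 transcript tables. A count of 0 allows up to 3 counts, which is 0.0928 to 0.474 CPM in the KO libraries and 0.222 to 0.425 CPM in WT. Cdkn2c (p18, chr4:109660876-109667189) ranged from 1.64 to 14.46 CPM in KO (median 6.62) and from 3.26 to 16.9 in WT (median 10.8). Both groups covered nearly the same range, and the log2 fold change of -0.54 had a 95% interval of -1.79 to 0.72 and an adjusted p of 0.666 in edgeR. It ran from -0.87 without KO 15409 to -0.15 without WT 15418. Cdkn2d (p19INK4d, chr9:21288410-21291407) ranged from 37.9 to 111 CPM in KO (median 71.9) and from 21.8 to 173 in WT (median 70.5). The WT libraries thus enclosed all KO libraries, and the log2 fold change was -0.16 with an interval of -1.20 to 0.87 and an adjusted p of 0.888. Without WT 15418, which holds the 173 CPM, the log2 fold change of Cdkn2d was 0.51 with an adjusted p of 0.54.

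Trp53 (chr11:69580359-69591873) had the most reads of these genes and the narrowest interval. Its CPM ranged from 288 to 470 in KO (median 393) and from 290 to 420 in WT (median 379). The libraries of the groups were interleaved, and the log2 fold change of 0.08 had a 95% interval of -0.33 to 0.48, that is 0.796 to 1.4 times the WT level, with an adjusted p of 0.864 in edgeR. Mdm2 (chr10:117688875-117710758), the ubiquitin ligase that degrades p53 and is itself a p53 target, ranged from 42.7 to 86.6 CPM in KO (median 59.7) and had 34.4, 36.6, 67.4 and 71.8 CPM in WT. Only KO 15411 lay above every WT library, and the log2 fold change was 0.22 (95% interval -0.37 to 0.80, adjusted p 0.719).

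Of the pocket protein genes, Rb1 (chr14:73183673-73325822) ranged from 17.2 to 48.0 CPM in KO (median 30.8) and had 13.3, 50.2, 43.5 and 48.4 CPM in WT libraries 15416, 15417, 15418 and 15420. As for Cdkn1c, WT 15416 lay below all KO libraries, and the log2 fold change of -0.26 (interval -1.05 to 0.52, adjusted p 0.748) was -0.55 (adjusted p 0.358) without it. Rbl2 (p130, chr8:91070057-91123844), the pocket protein of resting cells that pairs with E2F4 in the DREAM complex, ranged from 15.9 to 32.2 CPM in KO (median 28.3). In the WT libraries Rbl2 had 28.7, 16.6, 19.4 and 16.6 CPM, with WT 15416 this time the highest. Its log2 fold change was 0.37 (interval -0.23 to 0.96, adjusted p 0.507). WT 15416 was the lowest WT library for 7 of the 9 genes, where it was lowest for 25.4% of all genes tested.

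**Figure D2:**
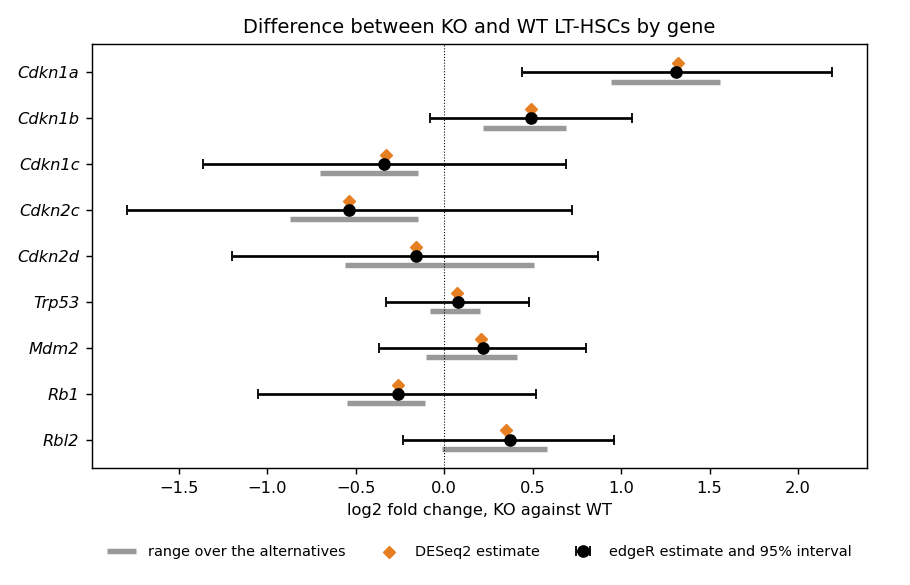
Log2 fold change of KO against WT for each gene (black point with its 95% interval, edgeR), the DESeq2 estimate (orange diamond) and the range over the alternative settings and left-out libraries (gray bar); 0 is the dotted line. The interval of Cdkn1a (0.44 to 2.19) is the one that does not include 0, and that of Trp53 is the narrowest.

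The reads of Cdkn1a were spread over 3 transcripts that share their last exons. Cdkn1a-201, of 1910 bases, starts at the proximal start, and had 5.88, 17.6, 12.2, 16.5, 23.1 and 24.4 TPM (transcript level, scaled for length) in KO libraries 15405, 15406, 15409, 15411, 15412 and 15415. In the WT libraries 15416, 15417, 15418 and 15420 this transcript had 2.53, 7.5, 4.66 and 4.85 TPM. All KO libraries but 15405 lay above all WT libraries, and the exact permutation test gave p = 0.019. Cdkn1a-202, of 748 bases as quantified, ranged from 7.2 to 22.9 TPM in KO and from 3.57 to 20.01 in WT, and the groups overlapped (exact p = 0.295). In Gencode vM21 it starts downstream of the p53 match shown above, and its exons there add up to more than the 748 bases quantified. It held a median of 62.1% of the gene's TPM in WT and 38.6% in KO.

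The third transcript, Cdkn1a-203, of 857 bases as quantified, is annotated as protein coding. In Gencode vM21 it begins at chr17:29097900, in what is intron sequence for the other transcripts. Its first exon there, at 6921 to 7858 bases from the upstream start, is longer than the 857 bases quantified. The model quantified was thus shorter than the one placed here, and its start may differ. Cdkn1a-203 had 14.2, 1.8, 7.39, 34.7, 10.2 and 6.8 TPM in the KO libraries in the order above. In the WT libraries it had 0, 0, 0 and 1.4 TPM. On TPM all KO libraries lay above all WT libraries, with the smallest exact p the design allows, 0.00952. On TMM-scaled estimated counts the groups overlapped, with KO 15406 at 1.14 CPM and WT 15420 at 1.36 CPM (exact p = 0.019). Its share of the gene's estimated counts ranged from 3.37% to 43.4% in KO and from 0% to 4.66% in WT, and was highest in KO 15411 and 15405. When its counts were left out, an alternative chosen after seeing the transcripts, the log2 fold change of Cdkn1a was 1.05 ± 0.45 (SE) with an adjusted p of 0.233 in edgeR.

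**Figure D3:**
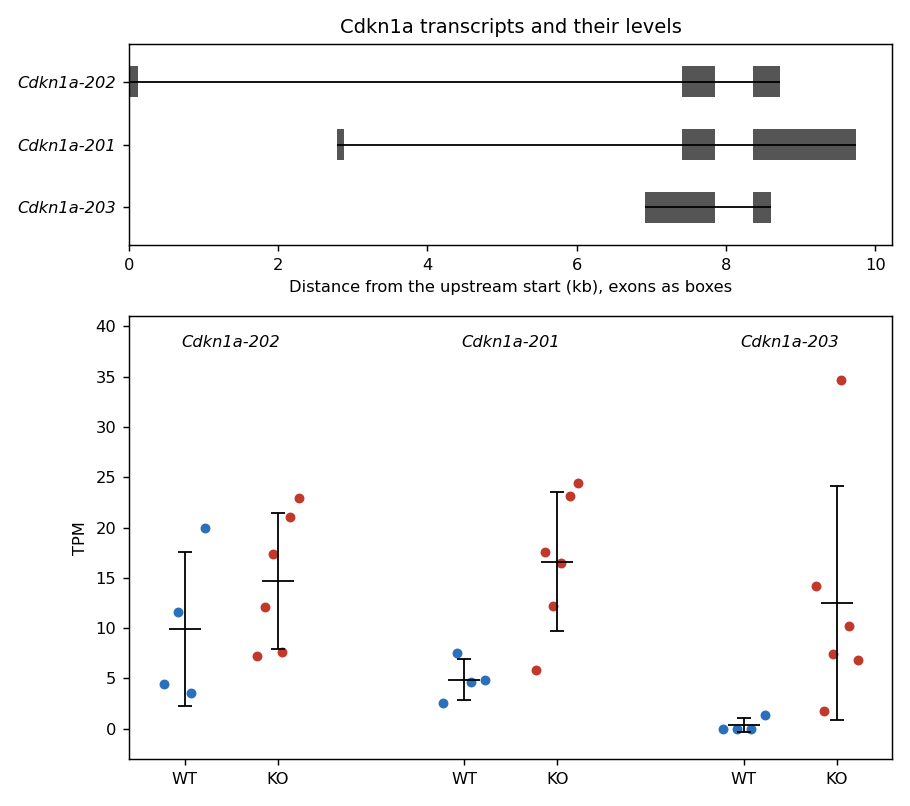
Top, exons (boxes) of the 3 Cdkn1a transcripts in Gencode vM21 against the distance in kb from the upstream start. The models quantified for Cdkn1a-202 and Cdkn1a-203 were shorter than those drawn. Bottom, TPM of each transcript in each WT (blue) and KO (red) library with mean and SD in black. Cdkn1a-203, which in Gencode vM21 begins within the intron of the others, lies at 1.8 to 34.7 TPM in KO and at 0 to 1.4 TPM in WT.

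TPM corrects for transcript length but not for the composition of a library, and over 11636 genes with a mean TPM of at least 1 the median log2 ratio of KO to WT was 0.42. For the 11619 of these that edgeR tested, the median log2 fold change of TMM-normalized counts was 0.00. TPM differences are therefore read against that shift. The log2 ratio of mean TPM was 1.54 for Cdkn1a, 0.91 for Cdkn1b, 0.81 for Rbl2, 0.78 for Mdm2 and 0.53 for Trp53, all above the shift. It was 0.32 for Cdkn2d, 0.21 for Cdkn1c, 0.16 for Cdkn2c and 0.06 for Rb1, all below it. On this scale the libraries of KO and WT did not overlap for Cdkn1a, at 27.3 to 58.8 against 6.97 to 26.3 TPM, and for Cdkn1b, at 11.7 to 17.1 against 5.16 to 11.6 TPM (exact p = 0.00952 for each). Of all genes, 6.16% of all genes had TPM groups that did not overlap, 5.98% with KO higher. The exact p on TPM was also under 0.05 for Rbl2 (0.019) and Mdm2 (0.0381), which makes 4 of 9 genes, where 20.5% of all genes were. These tests on TPM do not remove the shift. On TMM-normalized CPM the exact permutation test gave p = 0.162 for Rbl2 and 0.448 for Mdm2.

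The 10 genes have 49 quantified transcripts, of which 24 had a mean TPM of at least 1 and were tested. The exact permutation p was under 0.05 for 4 of the 24, Cdkn1a-201, Cdkn1a-203, Cdkn1b-201 and Trp53-205, where 17.1% of all transcripts at that level were. For 3 of the 24 the groups did not overlap, all 3 with KO higher, against 5.63% of all transcripts, 5.44% with KO higher. Trp53-205, a processed transcript of 3275 bases with no annotated protein, had 4.81, 3.41, 5.18, 6.8, 5.95 and 2.81 TPM in the KO libraries and 0.853, 2.29, 0.48 and 1.25 TPM in WT. All KO values lay above all WT values (exact p = 0.00952), at a median of 0.668% of Trp53 TPM in WT. The main coding transcripts of the gene, Trp53-203 and Trp53-201, had TMM-scaled estimated counts of 219 ± 49.4 and 115 ± 23.4 CPM in KO (SD, n = 6). In WT these were 219 ± 34.0 and 112 ± 15.9 CPM (SD, n = 4), with an exact p of 0.99 for Trp53-203. When the estimated counts of each transcript were scaled by TMM in place of TPM, an alternative chosen after seeing the data, 3 of the 24 had p under 0.05, Cdkn1a-201 (0.0381), Cdkn1a-203 (0.019) and Trp53-205 (0.00952), and Cdkn1b-201 had 0.0571. On that scale the groups did not overlap for 1 of the 24, Trp53-205. The shares of all transcripts on that scale were not computed, so these counts have no background to be read against.

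Ordered by their median gene TPM in WT, the levels ran from Trp53 at 171 TPM to Cdkn2a at 0. Rb1 followed Trp53 at 58.3 TPM, Cdkn1c stood at 51.9 and Cdkn2d at 51.0, and then came Cdkn1a at 13.6, Mdm2 at 13.5, Cdkn1b at 7.99, Cdkn2c at 6.59 and Rbl2 at 4.16. The WT ranges of neighbours in this order overlapped, except between Trp53 and Rb1 and between Rbl2 and Cdkn2a. The place of Rb1 rested on Rb1-206, a processed transcript of 408 bases that held a median of 86.9% of Rb1 TPM in WT and whose exonic bases all lie within Lpar6, a receptor gene on the opposite strand. Its share of the estimated counts of Rb1 ran from 3.21% in WT 15416 to 74.3% in WT 15420, and reads of Rb1-206 and Lpar6 cannot be told apart without strand. Without this transcript the median of Rb1 was 6.86 TPM in WT, between Cdkn1b and Cdkn2c, and the log2 fold change of its counts was -0.17 with an adjusted p of 0.854 in edgeR.

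**Figure D4:**
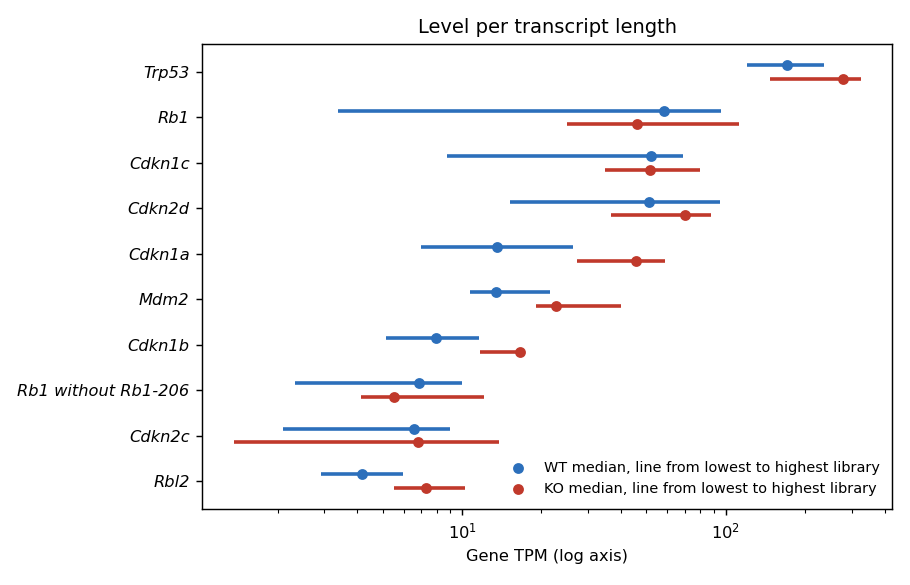
Gene TPM on a log axis, with the median of each group (point) and its lowest and highest library (line), WT in blue and KO in red; Cdkn2a, at 0 TPM in every library, is not drawn. Trp53 stands above the other genes at a WT median of 171 TPM, and Rb1 moves from 58.3 to 6.86 TPM when transcript Rb1-206 is left out.

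Further genes of the same pathways were read from lists written with earlier results of these data known, and are described by counts. Of 7 other genes of the CDK inhibitor, CDK and pocket protein families, 0 passed the edgeR test, and their log2 fold changes had a median of -0.18. The 2 with the smallest p were Cdk6, the kinase held by INK4 proteins, at 94.0 to 171 CPM in KO and 77.6 to 438 in WT (log2 fold change -0.72, adjusted p 0.334), and Cdkn3, a phosphatase of CDK2, at 16.4 to 37.7 and 23.3 to 60.3 CPM (-0.60, adjusted p 0.338). Of 16 E2F and DREAM complex genes, 0 were higher and 1 lower, E2f4, where 1.32% of all genes were higher and 2.67% lower, and the median was -0.24. E2f4, the repressive E2F that partners Rbl2, was at 80.6 to 112 CPM in KO and 133 to 273 in WT, with all KO libraries below all WT libraries. Its log2 fold change was -0.97 ± 0.22 (SE), with an adjusted p of 0.0824 in edgeR and 0.0202 in DESeq2.

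All 20 listed E2F target genes of S phase had a negative log2 fold change, with a median of -0.53 against 0.06 for all genes. The share of all genes with a negative log2 fold change was not computed. At the edgeR threshold 2 of the 20 were lower in KO, where 2.67% of all genes were. The 4 erythroblast markers tested also all had a negative log2 fold change (median -1.42). The part of the mix of cells in these values was not tested. Ccne1, the cyclin E1 that activates CDK2, was at 54.1 to 77.6 CPM in KO and 96.1 to 329 in WT (log2 fold change -1.45 ± 0.28 (SE), adjusted p 0.0824 in edgeR). Pola2, a subunit of DNA polymerase alpha, was at 387 to 630 CPM in KO and 884 to 1930 in WT (-1.34 ± 0.22 (SE), adjusted p 0.0824). For both genes all 6 KO libraries lay below all WT libraries. Without WT 15416 no gene of any pathway list passed the edgeR threshold, as also without KO 15405, 15406, 15412 or 15415, each left out in turn. In each of those settings 0 of all genes tested passed, so the loss of calls was not particular to these lists.

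In the p53 pathway lists there was no call in either direction, where 3.99% of all genes passed in edgeR and 6.79% in DESeq2, shares that amount to few genes in lists of this size. Of 13 regulators of p53, 0 passed, and the median of their log2 fold changes was 0.01. Mdm4, the partner of Mdm2 that inhibits p53, was at 61.5 to 91.3 CPM in KO and 38.2 to 64.0 in WT (0.61, adjusted p 0.152), and Chek1, the checkpoint kinase, at 15.2 to 23.4 and 21.5 to 39.4 CPM (-0.50, adjusted p 0.317). Of 26 p53 target genes other than Cdkn1a and Mdm2, 0 passed in edgeR and 0 in DESeq2 at the study's settings, 15 had a positive and 11 a negative log2 fold change, and the median was 0.26. The 2 with the smallest p lay on opposite sides. Sesn1, a stress protein that restrains mTORC1, was at 48.8 to 203 CPM in KO and 43.8 to 81.6 in WT (0.95, adjusted p 0.166), and Bax, a promoter of apoptosis, was at 88.8 to 153 CPM in KO and 155 to 187 in WT (-0.53, adjusted p 0.166).

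Of 18 regulators upstream of CDK inhibitors, 2 were higher in KO and 0 lower in edgeR, where 1.32% of all genes were higher, and the median was 0.12. The list was not sorted by whether a gene raises or lowers CDK inhibitors, so its median gives no direction for them. Nr4a1, an orphan nuclear receptor of the immediate early response, was at 31.9 to 383 CPM in KO (median 177) and 9.1 to 34.3 in WT (median 20.5), with 5 of 6 KO libraries above every WT library. Its log2 fold change was 3.24 ± 0.71 (SE), with an adjusted p of 0.0824 in edgeR. Smad3, a transducer of TGF-beta signals, was at 32.7 to 69.0 CPM in KO and 26.5 to 34.2 in WT (0.87 ± 0.23 (SE), adjusted p 0.0905). Egr1, another immediate early gene, passed with DESeq2 (1.82, adjusted p 0.0645) and not with edgeR (adjusted p 0.168). Foxo1 and Foxo3, transcription factors of stem cell quiescence, had log2 fold changes of 0.09 (adjusted p 0.933) and 0.14 (adjusted p 0.875).

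Cdkn1c lies in an imprinted cluster whose long noncoding RNA, Kcnq1ot1, is transcribed from the paternal chromosome, where Cdkn1c is silent. Of 10 other genes of the cluster, Kcnq1ot1 was the 1 that passed in edgeR, where 3.99% of all genes passed and 1.32% were higher. It was higher in KO, at 70.6 to 154 CPM (median 104) against 14.9 to 31.6 CPM in WT (median 22.7). All KO libraries lay above all WT libraries, and the log2 fold change was 2.27 ± 0.30 (SE), with an adjusted p of 0.0743 in edgeR and 4.15e-09 in DESeq2 at the study's settings. Kcnq1ot1 runs antisense to Kcnq1, and the counting is not stated to use strand, so reads of its shared stretch cannot be told apart from those of Kcnq1, which was at 11.4 ± 5.51 CPM in KO (SD, n = 6) and 6.61 ± 7.09 in WT (SD, n = 4). The coding genes listed from the cluster did not pass, such as Phlda2 (-0.48, adjusted p 0.808) and Nap1l4 (-0.03, adjusted p 0.947).

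The medians of these lists moved with single libraries. Without 1 library, the median of the E2F targets ran from -0.73 to -0.36 and that of the other CDK inhibitor, CDK and pocket genes from -0.24 to -0.08, the latter of each without WT 15416. The median of the E2F and DREAM genes ran from -0.39 without WT 15420 to 0.04 without WT 15418, and that of the p53 targets from 0.02 without KO 15412 to 0.43 without WT 15418. For the p53 regulators it ran from -0.19 without WT 15420 to 0.15 without WT 15416. For the regulators upstream of CDK inhibitors it ran from -0.02 without KO 15409 to 0.39 without WT 15420. For the imprinted cluster it ran from 0.03 without KO 15411 to 0.31 without WT 15418. Offsets for transcript length moved the median of all genes to -0.17. With them, the regulators upstream of CDK inhibitors stood at -0.33, the p53 regulators at -0.12 and the imprinted cluster at -0.09.

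**Figure D5:**
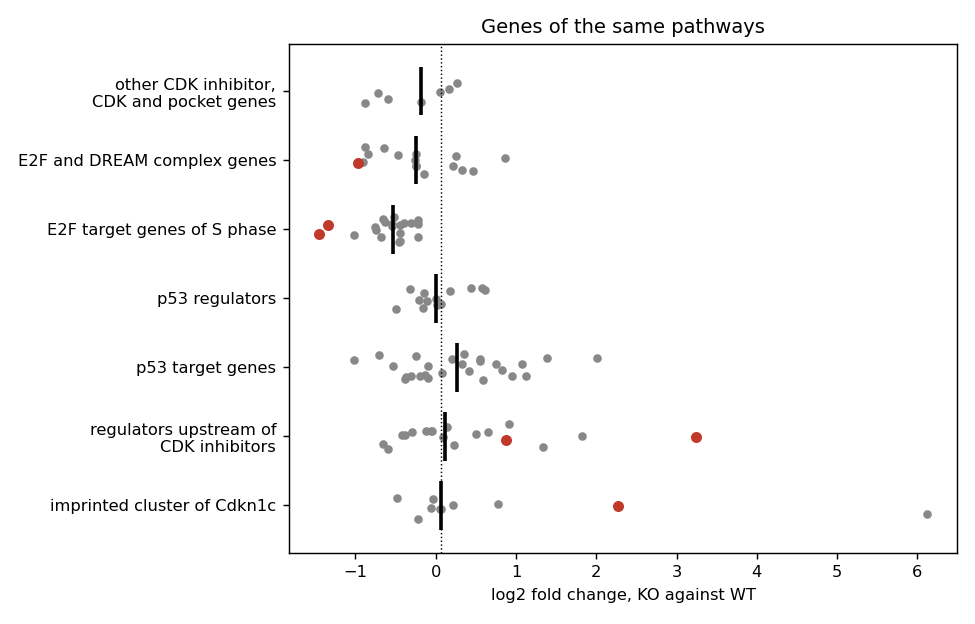
Log2 fold change (KO against WT) of the genes in 7 pathway lists, with genes past an adjusted p of 0.1 in red, the others in gray, the median of each list as a black bar and the median of all genes as a dotted line. The E2F targets of S phase all lie below 0, and Kcnq1ot1 (2.27) and Nr4a1 (3.24) lie far to the right; the gray point at 6.12 is Ascl2, with 0 counts in every WT library, whose fitted value depends on the prior count and is no measure of fold.

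The genes whose log2 CPM followed that of Cdkn1a most closely over the 10 libraries were Fosl2 (Pearson r = 0.955), Ehd4 (0.941) and Vps37a (0.938), and among the genes described here Cdkn1b came first at 0.838 while Trp53 was at -0.478. These 10 points share the difference between KO and WT, so the coefficients are a description. Fosl2, a subunit of the AP-1 transcription factor, was at 31.0 to 150 CPM in KO and 4.1 to 22.3 in WT, higher in KO by a log2 fold change of 2.78 ± 0.60 (SE), with an adjusted p of 0.0824 in edgeR. Ehd4, an endocytic protein, was at 83.1 to 124 CPM in KO and 42.2 to 82.5 in WT (0.66, adjusted p 0.15), and Vps37a, a subunit of the ESCRT-I complex, was at 14.1 to 32.5 and 9.63 to 20.7 CPM (0.60, adjusted p 0.342).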

How the data were processed

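RNA of LT-HSCs sorted from fetal livers was made into 6 KO and 4 WT SmartSeq2 libraries and sequenced single-end by the authors. They used bcl2fastq 2.20 and kallisto 0.44.0, per the submitters' processing notes, on Gencode transcripts of GRCm38. The authors deposited estimated counts and TPM for each transcript, with TPM scaled for effective length, and a table of whole-number counts per gene that is not normalized. Of its values 97.5% lay within 1 count of the sum of the transcript estimates. Columns of effective length were used for an alternative.

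A total of at least 11 counts was required of a gene, and genes were tested with edgeR 4.0.16 in R 4.3.3 (TMM, glmQLFit with robust estimation, glmQLFTest), and a Benjamini-Hochberg adjusted p under 0.1, the study's threshold, is called. As an alternative, DESeq2 (1.42.0) was run as in the study, against a log2 fold change of 0.1. Gene CPM and transcript TPM were compared with SciPy 1.17.1 by two-sided exact permutation tests, unadjusted, for 9 genes and 24 transcripts. Standard errors and intervals came from the quasi-likelihood F statistic. Correlations used log2 CPM with a prior count of 2. Positions are those of Gencode vM21, on the same build. Transcript lengths are those of the models quantified, which for Cdkn1a-202 and Cdkn1a-203 were shorter than in Gencode vM21. The scripts were tested on simulated data.

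The genes and lists were chosen with earlier results of these data known. The genes named are the 10, list genes past the threshold or, where a list had none, its 2 with the smallest p, and the 3 with the highest correlation to a gene called by edgeR or DESeq2. Foxo1, Foxo3, Phlda2, Nap1l4, Kcnq1 and genes that overlap a named gene were added after their values were seen. Reads carry no molecular identifiers, so limits from 3 counts cover counting error only. Alternatives were DESeq2 with and without its threshold, DESeq2 size factors, upper-quartile normalization, other filters, no robust estimation, Xist as a covariate, offsets for transcript length, transcript sums, log2(TPM + 1) and leaving out each library.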

Additional observations from a re-analysis of the deposited data

Results flagged for a closer look

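By Dixon's test at the 95% level, the library at one end stood apart from its group in 5 of 66 groups of values examined. With normally distributed values chance does this for about 1 group in 20, and transcripts at 0 in several libraries do not meet that. Cdkn1c was at 8.87 CPM in WT 15416, below the other 3 WT libraries. Cdkn1a-203 was at 1.4 TPM in WT 15420, where the other WT libraries were at 0, so that any value above 0 there would have been flagged. Cdkn2d-202 was at 17.9 TPM in WT 15418, Mdm2-209 at 18.4 TPM in WT 15420 and Rb1-202 at 4.39 TPM in WT 15417, each above the other WT libraries. Of Rb1-202, 93.2% of the exonic bases are shared with Rcbtb2 on the opposite strand.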

How the results depend on the processing

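Over the alternatives with all libraries, 112 of 117 values of the 9 genes kept their direction and their side of the threshold. As the main test called 0 of the 9 genes, keeping that side meant staying uncalled. Where a setting called 0 of all genes, as an adjusted p under 0.05 and several left-out libraries did, no other outcome was possible. DESeq2 called Cdkn1a (log2 fold change 1.32, adjusted p 0.0632 with its fold-change threshold and 0.0266 without), and its adjusted p ran from 0.0266 to 0.357 over all alternatives. With the transcript length offset, which moved the median of all genes to -0.17, Trp53 was at -0.08, Mdm2 at -0.10 and Rbl2 at -0.01. Of 90 values without 1 library, 88 kept their direction and call, Cdkn2d ran from -0.48 to 0.51, the latter without WT 15418, and Trp53 from -0.02, without WT 15420, to 0.18. The cause of these changes was not tested.

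Against 221 higher and 446 lower with edgeR, DESeq2 gave 585 higher with its threshold, and 998 higher and 1145 lower without it. The transcript length offset gave 41 higher and 424 lower. Xist as a covariate, and an adjusted p under 0.05, gave 0 and 0, with 2373 and 3139 genes at an unadjusted p under 0.05. Leaving out 1 library gave 0 to 405 genes higher and 0 to 598 lower, with 0 of each without KO 15405, 15406, 15412 or 15415, or without WT 15416. Of the pathway list genes, 6 were called, 18 with DESeq2 without a threshold, 0 with the Xist covariate or an adjusted p under 0.05, and 0 to 10 without 1 library. The number of transcripts with an exact p under 0.05 stayed between 3 and 6. No paired analysis was possible because the labels give the KO and WT libraries no shared replicate number and do not record the litter. At depths of 5315435 to 30941726 counts, 3 counts were 0.0928 to 0.474 CPM, below which a level could not be told from 0.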
